A study of Rattus norvegicus with 8 samples.

Results

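Interferon-stimulated effector genes are the antiviral proteins that a cell makes once an interferon has bound its receptor. The receptors act through JAK kinases and STAT transcription factors, which bind interferon-stimulated response elements (ISRE) and gamma-activated sites (GAS) near the start sites of their target genes. The products block entry, replication, translation or release of viruses, tag proteins with the ubiquitin-like ISG15, or take part in cell death. In the kidney such genes can be expressed by tubular, vascular and resident immune cells. A list of 44 such genes was examined here in rat kidney, and members were found as probe sets (groups of probes summarized to 1 value) that the platform annotation pairs with exactly 1 of these gene symbols. In all, 46 probe sets represented 36 of the 44 members, out of 31042 probe sets and 14217 genes in the whole experiment. A single probe set represented 29 members, 2 represented 4 and 3 represented 3. The other 8 members, Ddx58, Gbp5, Ifi47, Oas2, Oas3, Oasl2, Trim21 and Xaf1, had no such probe set and are reported as not measured.

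The kidneys came from male Wistar rats, 8 weeks of age, that had been fed a control diet with 0.3% phosphorus or a high phosphorus (HP) diet with 1.2% phosphorus for 24 days. Both diets were based on AIN-93G and had the same calcium content, and in the HP diet some corn starch was replaced by KH2PO4, so that potassium was added together with phosphorus. RNA of the whole left kidney was hybridized to Affymetrix whole-genome rat arrays, 1 rat per array, with 4 control arrays and 4 HP arrays. The authors had chosen average animals of each diet by urine volume and kidney phosphorus, so that the arrays show the spread of selected animals only. Values were condensed by the authors with the distribution free weighted method (DFW) on a log scale of unstated base, which was read as log2, and this method pulls the values of a probe set close together. Differences are therefore given as HP minus control in units of 1e-05 of this log2 scale with their SE, and as a standardized difference, expressed in pooled SDs within the diets. They are not fold changes, and levels are not compared between probe sets.

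Many of the measured members were higher on the HP diet, and none was called lower in the values as deposited. Limma, with the Benjamini-Hochberg adjustment over all 31042 probe sets, called 10 of the 46 member probe sets higher (adjusted p under 0.05), 1 each for Ifi44l, Ifitm1, Parp14, Ifit2, Ifitm3, Dtx3l, Eif2ak2, Gbp2, Igtp and Oasl, whereas 2.95% of all probe sets were called higher. None of the 46 was called lower, compared with 1.13% of all probe sets. At an unadjusted limma p under 0.05, 29 member probe sets were higher and 0 were lower. Of all 31042 probe sets, 9.53% were higher and 2932 were lower at this threshold. Rank products, the test used in the study, called 17 member probe sets of 16 genes higher (FDR under 0.05; 3.4% of all) and 0 lower (2.29% of all). Both tests called 8, rank products alone called 9 and limma alone called 2, Oasl and Eif2ak2. In the kidney as a whole, a higher level in the cells and a larger number of cells that express a gene cannot be told apart.

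The standardized difference was above 0 in 43 of the 46 member probe sets, against 42.3% of all probe sets. Its median was 1.91 over the members (range -1.08 to 6.64) and -0.21 over all probe sets. The 4 HP values exceeded all 4 control values in 24 of the 46 member probe sets, against 7.09% of all, and were all below them in 0, against 5.81% of all. For such a probe set the exact two-sided permutation test gives p = 0.029, the smallest that 4 arrays against 4 allow. The direction depended on scaling: 45 members were above 0 when each array was centred on its median deviation from the probe set means, 13 after quantile normalization, where 10 were at 0, and 13 when each array was centred on its own median. The array medians differed by up to 0.000185, while the values of a probe set differed between 2 arrays by a median of only 1.93e-06 to 2.65e-06. Quantile normalization left 13 of the 46 members, and 49.2% of all probe sets, with an SD within diets under 1e-12, and differences under 1e-12 are taken as 0 there. In all of these scalings 8 member probe sets had a difference above 0, and 4 of them, those of Ifitm1, Gbp2, Igtp and Parp14, had been called by limma in the values as deposited.

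**Figure D1:**
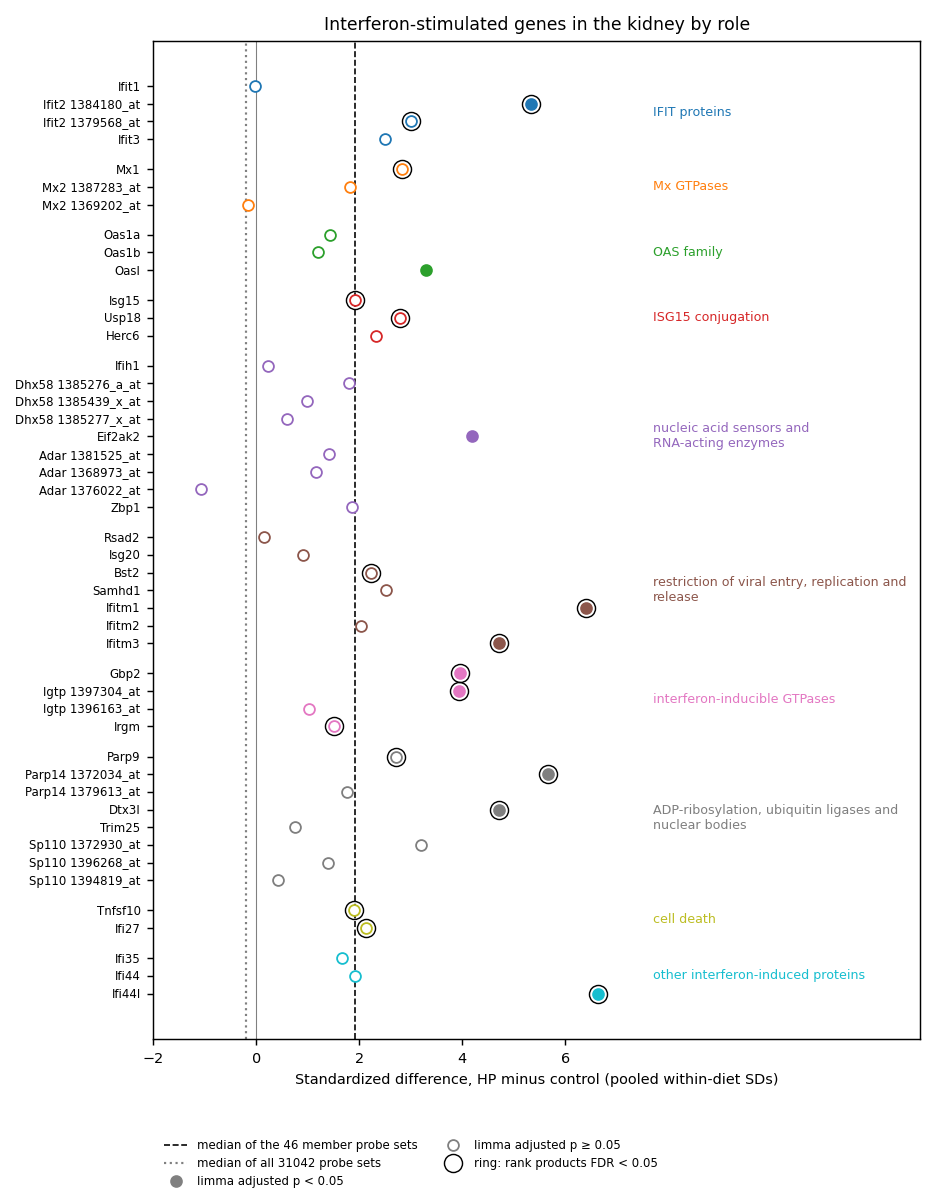
Standardized difference (HP minus control, in pooled SDs within diets, horizontal axis) of the 46 member probe sets, grouped by role on the vertical axis. Filled points passed limma, rings mark rank products, and the dashed and dotted lines are the medians of the members (1.91) and of all probe sets (-0.21), so that most members lie to the right of both 0 and the dotted line.

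Sequence upstream of the members was examined because ISRE and GAS elements are the known binding sites of interferon-activated factors. Promoters of RefSeq (build GRCr8, 250 bases before to 50 after the start) were matched by symbol to 33 of the 44 members, 27 of them measured. The ISRE core, searched as GAAANNGAAA on both strands, was present in 24 of the 33 (72.7%), against 3.92% of all 33469 promoters. It was found in 7 of the 8 promoters of members called by limma and in 12 of the 19 promoters of measured members that were not called. The GAS core, searched as TTCNNNGAA on both strands, was present in 10 of the 33 (30.3%), against 8.87% of all promoters, in 4 of the 8 called members and in 5 of the 19 uncalled ones. Among the members, the 2 motifs overlapped each other only in Bst2. These matches are letters in a window and not shown to be bound in these kidneys.

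In 4 of the 33 member promoters, those of Parp14, Igtp, Irgm and Ifitm3, both motifs were present with their first bases 11 apart, a spacing that 6 of all 33469 promoters (0.0179%) had. The spacing, counted in either order of the motifs, was noticed after the sequences had been seen. Its share among all promoters, which include these 4, is therefore not a test of it. The GAS core came first in Parp14 (87 bases before the start, with the ISRE core at 76), Igtp (114 and 103) and Irgm (45 and 34), and the ISRE core came first in Ifitm3 (44 and 33). With the GAS core first, 2 bases lay between the motifs, and with the ISRE core first, 1 base. These 4 genes thus share the distance between first bases, but not the order of the motifs or the gap. Their 250 bases before the start are shown 5′ to 3′ on the strand of the gene, with the matches in capitals.
Parp14, chr11:78407884-78408133, plus strand: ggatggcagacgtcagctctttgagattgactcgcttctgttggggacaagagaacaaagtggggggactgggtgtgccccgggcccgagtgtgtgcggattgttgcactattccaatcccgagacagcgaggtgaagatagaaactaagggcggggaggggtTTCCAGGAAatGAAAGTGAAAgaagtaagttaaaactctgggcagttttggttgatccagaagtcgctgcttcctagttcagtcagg
Igtp, chr10:42874797-42875046, plus strand: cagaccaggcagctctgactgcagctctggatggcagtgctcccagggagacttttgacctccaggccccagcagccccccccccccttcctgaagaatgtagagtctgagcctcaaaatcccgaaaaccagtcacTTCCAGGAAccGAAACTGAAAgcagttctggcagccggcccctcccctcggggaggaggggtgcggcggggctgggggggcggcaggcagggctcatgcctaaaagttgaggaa
Irgm, chr10:33742579-33742828, minus strand: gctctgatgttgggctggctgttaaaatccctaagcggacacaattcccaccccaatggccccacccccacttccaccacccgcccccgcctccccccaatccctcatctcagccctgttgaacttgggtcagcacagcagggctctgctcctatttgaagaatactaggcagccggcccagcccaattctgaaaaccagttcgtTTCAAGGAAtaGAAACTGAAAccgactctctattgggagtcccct
Ifitm3, chr1:205541759-205542008, minus strand: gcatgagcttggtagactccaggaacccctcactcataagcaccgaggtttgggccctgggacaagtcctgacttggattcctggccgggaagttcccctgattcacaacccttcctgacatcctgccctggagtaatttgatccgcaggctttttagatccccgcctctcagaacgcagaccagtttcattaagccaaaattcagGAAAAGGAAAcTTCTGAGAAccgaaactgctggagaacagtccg

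A further 4 promoters are shown as contrasts between the sequence and the measurement. Ifi44l, with the largest standardized difference of the members, had ISRE cores at 91 and 59 bases before the start and a GAS core at 247. Gbp2, also called by limma, had a single ISRE core at 31. Rsad2 had an ISRE core at 147 but was not called, and Oasl was called but had no match to either motif in this window.
Ifi44l, chr2:243328473-243328722, plus strand: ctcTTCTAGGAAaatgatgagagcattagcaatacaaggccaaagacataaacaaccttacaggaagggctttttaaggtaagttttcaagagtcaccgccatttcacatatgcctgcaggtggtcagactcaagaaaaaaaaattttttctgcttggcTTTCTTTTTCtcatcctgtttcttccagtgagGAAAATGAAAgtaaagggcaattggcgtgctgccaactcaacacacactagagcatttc
Gbp2, chr2:234005477-234005726, plus strand: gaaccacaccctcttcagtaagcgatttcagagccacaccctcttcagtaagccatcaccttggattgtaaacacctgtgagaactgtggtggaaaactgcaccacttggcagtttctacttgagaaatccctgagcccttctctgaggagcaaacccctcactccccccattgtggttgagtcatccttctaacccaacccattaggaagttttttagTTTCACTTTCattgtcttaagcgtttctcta
Rsad2, chr6:48788121-48788370, minus strand: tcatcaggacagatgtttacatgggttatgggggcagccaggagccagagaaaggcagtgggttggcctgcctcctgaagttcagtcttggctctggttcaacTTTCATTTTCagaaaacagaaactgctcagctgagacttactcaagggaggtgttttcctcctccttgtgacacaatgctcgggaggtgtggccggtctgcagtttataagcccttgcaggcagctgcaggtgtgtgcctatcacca
Oasl, chr12:47356293-47356542, minus strand: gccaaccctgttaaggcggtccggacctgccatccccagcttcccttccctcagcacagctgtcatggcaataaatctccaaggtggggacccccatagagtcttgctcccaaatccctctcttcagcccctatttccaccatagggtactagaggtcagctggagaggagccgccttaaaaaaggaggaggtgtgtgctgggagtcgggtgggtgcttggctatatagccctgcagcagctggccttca

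The members that act on entry, replication and release of viruses had a median standardized difference of 2.22 over 7 probe sets, of which limma called 2, both of the Ifitm family of membrane proteins that restrict fusion of viruses with the cell. Ifitm1 (control mean 9.7876 on the log2 scale) had values of 1.86, -7.58, -0.972 and 6.69 on the control arrays and 80.0, 88.9, 59.2 and 60.2 on the HP arrays, in 1e-05 relative to the control mean, as are all array values that follow. The diets did not overlap, and HP 1 and HP 2 were the higher arrays. The difference was 72.1 (SE 7.97), or 6.40 SDs, and Ifitm1 rose by limma (adjusted p = 0.0075). Its difference was above 0 in every scaling but passed limma in neither of the quantile and median scalings (adjusted p = 0.28 and 0.98). Ifitm3 (control mean 10.2756) lay at 0.571, -4.24, 3.91 and -0.242 on the control arrays and at 26.4, 38.5, 21.1 and 24.5 on the HP arrays. The diets were again separate, and HP 2 was the highest array. The difference was 27.6 (SE 4.14), or 4.72 SDs, and Ifitm3 rose by limma (adjusted p = 0.019), with a difference of 0 after quantile normalization. The third gene of the family, Ifitm2, had a standardized difference of 2.03 (limma adjusted p = 0.16, below 0 after median centring) and lies next to Ifitm1, which Ifitm3 follows, on chromosome 1 in GRCr8.

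The remaining members of this role were not called by limma. Bst2 (tetherin), which holds budding viruses on the cell surface, was called by rank products only (FDR = 0.010). Its control arrays lay at 1.43, 4.65, -6.10 and 0.0153 and its HP arrays at 9.89, 16.3, 8.68 and 5.38, which did not overlap, and its standardized difference was 2.22 (limma adjusted p = 0.13, at 0 after quantile normalization). Samhd1, which depletes the nucleotides needed for reverse transcription, had a standardized difference of 2.52 (limma adjusted p = 0.22, below 0 after quantile normalization and after median centring). The exonuclease Isg20 was at 0.90 SDs (limma adjusted p = 0.54) and the radical SAM enzyme Rsad2 (viperin) at 0.15 SDs (0.94), both were below 0 after median centring, and Isg20 also after quantile normalization. The arrays of Rsad2 overlapped, with control values from -0.514 to 0.756 and HP values from -0.639 to 1.13.

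Gbp2 and Igtp, interferon-inducible GTPases that act at membranes around intracellular pathogens, were both called. Gbp2 (control mean 7.1957) lay at 4.43, -4.79, 5.09 and -4.73 on the control arrays and at 69.9, 64.4, 34.5 and 39.0 on the HP arrays. HP 1 and HP 2 were well above HP 3 and HP 4, and all 4 were above the control arrays. The difference was 51.9 (SE 9.31), or 3.95 SDs, and Gbp2 rose by limma (adjusted p = 0.029) and was the only member still called higher after quantile normalization (0.029). Igtp (control mean 8.2410) lay at 1.19, 0.196, -2.05 and 0.672 on the control arrays and at 17.8, 14.4, 7.87 and 10.6 on the HP arrays. The order of the HP arrays was the same as for Gbp2, with HP 1 highest and HP 3 lowest. The difference was 12.7 (SE 2.28), or 3.93 SDs, and this probe set of Igtp rose by limma (adjusted p = 0.029), with a difference above 0 in every scaling that passed in neither of the quantile and median scalings (0.60 and 0.98). A second Igtp probe set was at 1.03 SDs (limma adjusted p = 0.48, below 0 after median centring), so the 2 probe sets of this gene differed in their call. Irgm, a related GTPase of the same family as Igtp, was called by rank products only (FDR = 0.040). Its control arrays lay at 0.126, 1.17, -0.914 and -0.385 and its HP arrays at 1.22, 3.22, 11.9 and 3.93, so that HP 3 stood above the rest and HP 1 barely above control 2. Its standardized difference was 1.5 (limma adjusted p = 0.29, below 0 after quantile normalization and after median centring).

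A run of 3 neighbouring genes of chromosome 11 (order Parp9, Dtx3l, Parp14 in GRCr8, with no gene between them) encode partners in ADP-ribosylation and ubiquitination. Parp14, a mono-ADP-ribosyltransferase, had a control mean of 8.1984, with control arrays at -0.12, 0.755, 0.512 and -1.15 and HP arrays at 8.72, 10.9, 6.86 and 6.95. The diets were clearly apart, with HP 2 highest. The difference was 8.36 (SE 1.05), or 5.66 SDs, and this probe set of Parp14 rose by limma (adjusted p = 0.011), with a difference above 0 in every scaling that passed in neither of the quantile and median scalings (0.60 and 0.98), whereas a second probe set was at 1.77 SDs (limma adjusted p = 0.22, below 0 after median centring). Dtx3l, the ubiquitin ligase that pairs with Parp9, had a control mean of 7.7166, with control arrays at 1.47, 0.304, -1.24 and -0.543 and HP arrays at 14.1, 15.4, 11 and 7.78. HP 4 was the lowest HP array and still above every control array. The difference was 12.1 (SE 1.81), or 4.72 SDs, and Dtx3l rose by limma (adjusted p = 0.019), with a difference of 0 after quantile normalization. Parp9 itself was called by rank products only (FDR = 0.014), with control arrays at 1.38, -1.26, 1.12 and -1.24 and HP arrays at 9.52, 11.1, 4.50 and 4.14. Its diets did not overlap, and its standardized difference was 2.72 (limma adjusted p = 0.082, above 0 in every scaling). In the same role, the nuclear body protein Sp110 had 3 probe sets at 3.20, 1.40 and 0.42 SDs (limma adjusted p = 0.052, 0.33 and 0.81), and Trim25, the ubiquitin ligase that activates the RNA sensor RIG-I, was at 0.75 SDs (0.63), and all 4 of these probe sets were below 0 after median centring and all but the first also after quantile normalization.

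The IFIT proteins, which bind viral RNA and inhibit its translation, differed among themselves. Ifit2 (control mean 8.0663) lay at -0.0395, -0.608, 0.253 and 0.394 on the control arrays and at 5.57, 6.34, 5.46 and 3.32 on the HP arrays. HP 4 was the lowest of the HP arrays, and the diets did not overlap. The difference was 5.17 (SE 0.685), or 5.34 SDs, and Ifit2 rose by limma (adjusted p = 0.013), but was below 0 after quantile normalization and after median centring. Its second probe set was at 3.01 SDs and was called by rank products (FDR = 0.043) but not by limma (adjusted p = 0.061), and turned below 0 in the same scalings. Ifit3, its neighbour on chromosome 1, was at 2.49 SDs (limma adjusted p = 0.10, below 0 in the same scalings), with the diets apart. Ifit1 was at -0.03 SDs (0.99), with control arrays between -0.0427 and 0.0576 and HP arrays between -0.0929 and 0.0538, and was among the lowest 25% of probe sets by mean value.

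Among the sensors and enzymes that act on foreign RNA, limma called 1 of 9 probe sets. This was Eif2ak2, or PKR, the kinase that stops translation once it has bound double-stranded RNA (control mean 8.2520), with control arrays at 0.103, -0.101, -0.0217 and 0.0197 and HP arrays at 0.62, 0.606, 0.342 and 0.398. HP 1 and HP 2 were again the higher arrays, and the diets did not overlap. The difference of 0.492 (SE 0.0829), or 4.19 SDs, was the smallest in absolute terms among the called members, and Eif2ak2 rose by limma (adjusted p = 0.029) but not by rank products (FDR = 0.64), and was below 0 after median centring and after quantile normalization, where no spread within the diets was left to test it. The adenosine deaminase Adar had 3 probe sets at 1.42, 1.15 and -1.08 SDs (limma adjusted p = 0.35, 0.76 and 0.92), the helicase Dhx58 had 3 at 1.80, 0.98 and 0.60 (0.22, 0.52 and 0.72), the nucleic acid sensor Zbp1 was at 1.86 (0.20) and the RNA sensor Ifih1 (MDA5) at 0.23 (0.91). All of these were below 0 after median centring and, apart from Ifih1, after quantile normalization. The other RNA helicase of the list, Ddx58, is not measured under that symbol. A probe set annotated with its other name Rig1 was at 0.88 SDs (limma adjusted p = 0.55, below 0 after quantile normalization and after median centring).

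The OAS family makes the oligoadenylates that activate RNase L, and Oasl is a related protein. Oasl (control mean 7.0446) lay at -0.357, 1.17, -0.701 and -0.111 on the control arrays and at 3.5, 3.17, 3.62 and 1.53 on the HP arrays. HP 4 was nearest to control 2, with no overlap. The difference was 2.96 (SE 0.634), or 3.30 SDs, and Oasl rose by limma (adjusted p = 0.047) but was not called by rank products (FDR = 0.061) and was below 0 after quantile normalization and after median centring. Oas1a (1.44 SDs, limma adjusted p = 0.31) and Oas1b (1.20 SDs; 0.40) were not called, were below 0 after median centring, and had overlapping diets.

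The Mx GTPases, which block viral nucleocapsids, had no limma call. Mx1 was called by rank products (FDR = 0.010), with control arrays at -1.11, 1.95, -2.20 and 1.36 and HP arrays at 10, 13.4, 9.73 and 3.48. HP 4 was close to control 2, and the diets did not overlap. Its standardized difference was 2.83 (limma adjusted p = 0.073, above 0 in every scaling), and without HP 4 the adjusted p was 0.027. Mx2 had probe sets at 1.82 and -0.17 SDs (limma adjusted p = 0.21 and 0.94), both with overlapping diets, and the first was below 0 after quantile normalization and after median centring while the second was at 0 after quantile normalization.

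Isg15, the ubiquitin-like modifier, and Usp18, the protease that removes it and also dampens the type I receptor, were called by rank products (FDR = 0.0056 and 0.0046) and not by limma (adjusted p = 0.18 and 0.075). Isg15 lay at -0.384, -4.71, -0.413 and 5.51 on the control arrays and at 15.4, 28.9, 7.84 and 7.19 on the HP arrays. HP 2 stood far above the others, while HP 3 and HP 4 were near control 4. Its standardized difference was 1.92, below 0 after quantile normalization. Usp18 lay at -6.96, -1.74, 4.79 and 3.92 on the control arrays and at 11.2, 20.4, 13 and 11.1 on the HP arrays, with a standardized difference of 2.80 that was above 0 in every scaling. Herc6, the ligase that attaches ISG15 in rodents, was at 2.33 SDs (limma adjusted p = 0.12, below 0 after quantile normalization and after median centring), with the diets apart.

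Tnfsf10, or TRAIL, a ligand of death receptors, had the largest difference of all members in absolute terms and also a large spread. It lay at 55.1, -25.2, -59.8 and 29.9 on the control arrays and at 181, 105, 58.1 and 67.3 on the HP arrays. The diets did not overlap, but HP 3 was only just above control 1. The difference was 103 (SE 38.3), or 1.90 SDs, and was above 0 in every scaling, with a call by rank products (FDR = 0.00017) and none by limma (adjusted p = 0.19). Ifi27, a mitochondrial and nuclear membrane protein linked to apoptosis, lay at 10.6, -5.71, -2.96 and -1.91 on the control arrays and at 29.7, 51.4, 12.6 and 18.2 on the HP arrays. It was at 2.13 SDs, called by rank products (FDR = 0.0018) and not by limma (adjusted p = 0.15), and below 0 after quantile normalization.

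Ifi44l, an interferon-induced protein that has been linked to feedback on the interferon response, showed the largest standardized difference of all members. Its control mean was 8.3905, and its control arrays lay at -0.262, -0.511, -0.294 and 1.07 and its HP arrays at 7.6, 5.64, 5.31 and 5.53. HP 1 was the highest, and the lowest HP array was well above control 4. The difference was 6.02 (SE 0.641), or 6.64 SDs, and Ifi44l rose by limma (adjusted p = 0.0069) and by rank products (FDR = 0.016), with a difference of -0.0839 after median centring. Its neighbour on chromosome 2, Ifi44, was at 1.91 SDs (limma adjusted p = 0.19, below 0 after quantile normalization and after median centring) with overlapping diets, and Ifi35, which binds the interferon-induced protein Nmi, was at 1.66 SDs (0.24, below 0 after median centring). Several members have close relatives that probes can share, among them the Ifitm and Oas1 genes, so the division between relatives is uncertain.

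**Figure D2:**
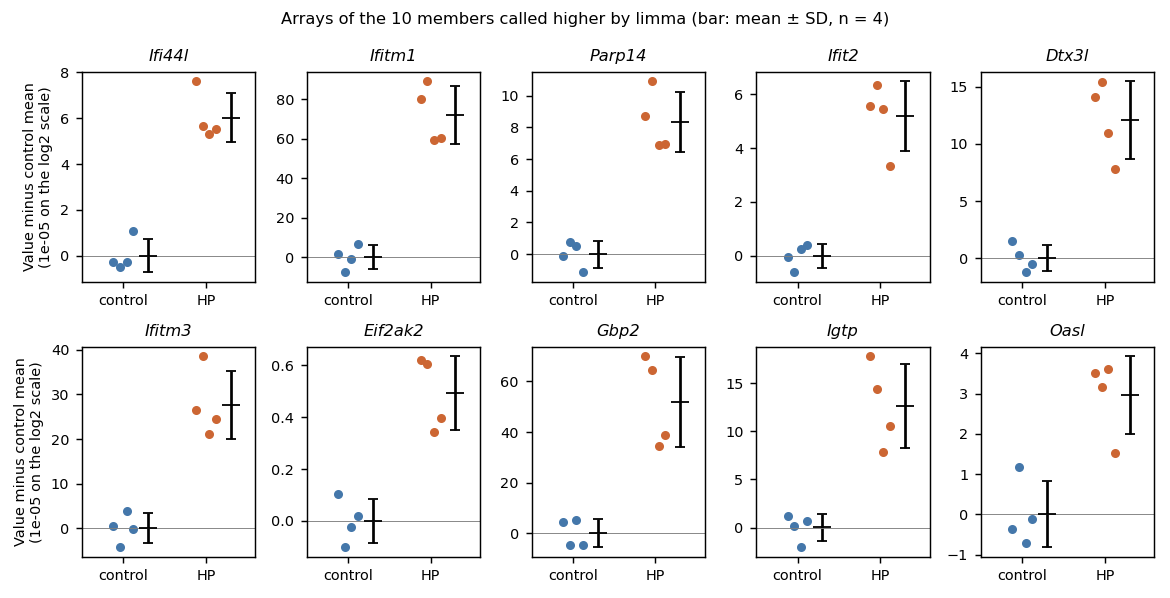
Values of the 8 arrays relative to the control mean (vertical axis, in 1e-05 of the log2 scale) for the 10 member probe sets called higher by limma, with control arrays in blue and HP arrays in orange. Horizontal marks and bars are the mean and SD of each diet (n = 4), each panel has its own scale, and in all 10 the HP arrays lie above the control arrays.

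The HP arrays differed in how far the members lay above the control mean. With every member probe set divided by its SD, the median over the members was 2.29 on HP 1, 2.76 on HP 2, 1.55 on HP 3 and 1.24 on HP 4, and between -0.19 and 0.07 on the control arrays. HP 2 was the highest HP array in 26 of the 46 member probe sets (56.5%), compared with 30% of all probe sets. HP 3 was the lowest in 22 (47.8%, against 24.6% of all) and HP 4 in 18 (39.1%, against 23.6%). These counts are over probe sets measured on the same 4 RNA samples. Macrophage markers had medians of 3.39, 5.30, 3.20 and 2.49 on the same arrays, in the same order of animals, and their part in the members' differences was not tested.

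**Figure D3:**
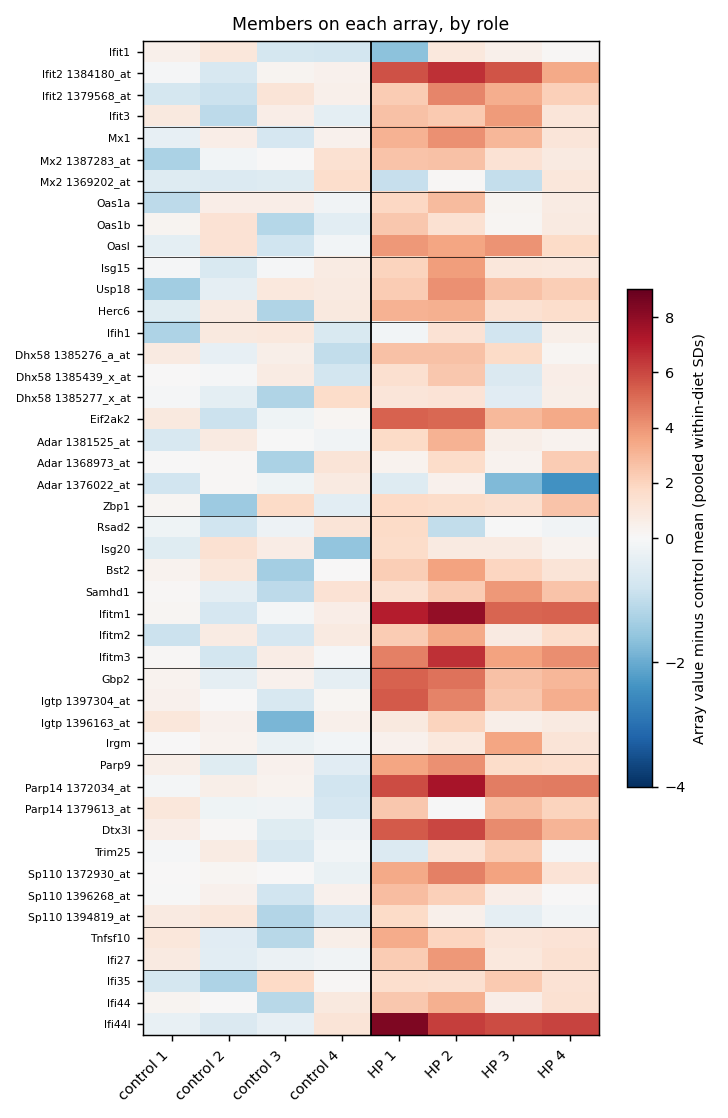
Each row is 1 of the 46 member probe sets, ordered by role, and each column 1 array, coloured by the value minus the control mean in pooled SDs within diets. The 4 HP columns are mostly red, with medians from 1.24 (HP 4) to 2.76 (HP 2), and the 4 control columns are pale.

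The calls of some members depended on single arrays, and fewer probe sets of any kind were called without an array. Leaving out any 1 array, Ifi44l, Ifitm1, Parp14 and Ifit2 kept a limma adjusted p of at most 0.030, 0.032, 0.042 and 0.047. Ifitm3 lost its call without HP 1 (0.058), control 1 (0.054) or control 2 (0.056), and Dtx3l lost its call without HP 1 (0.058), control 2 (0.056), control 3 (0.062) or control 4 (0.051). Gbp2 lost its call without HP 1 (0.062), HP 2 (0.070) or any control array (0.071 to 0.079). Eif2ak2 was called only without HP 3 (0.033), with 0.050 to 0.086 for the other 7 arrays. Igtp was likewise called only without HP 3 (0.023), with 0.051 to 0.087 otherwise, and Oasl only without HP 4 (0.030), with 0.057 to 0.12 otherwise. Of the 46 member probe sets, 4 were called without control 2 or without HP 1, 5 without control 1, 3 or 4, 6 without HP 2, 9 without HP 3 and 10 without HP 4 (8 of them the same), while 1.09% to 2.16% of all probe sets were called higher in these fits. None was called lower in these fits.

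**Figure D4:**
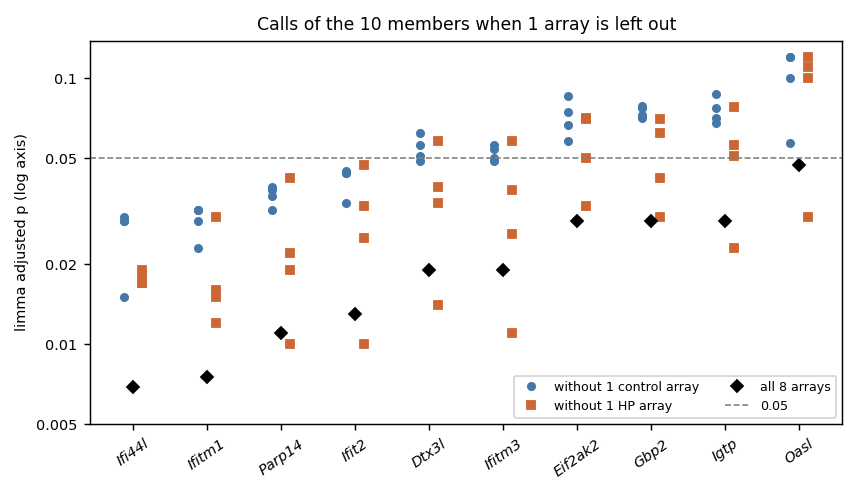
Limma adjusted p (vertical axis, log scale) of the 10 called members with all 8 arrays (diamonds) and with 1 array left out (circles for a control array, squares for an HP array), with the dashed line at 0.05. Ifi44l, Ifitm1, Parp14 and Ifit2 stay below the line in every case, while most points of Oasl, Igtp and Eif2ak2 lie above it.

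Genes upstream of the members and further interferon-induced genes were described from 4 lists. The 3 interferon ligands measured, Ifnb1, Ifng and Ifnk, were at -0.48, 0.21 and -0.05 SDs, and 0 were called by limma or rank products. Of 18 receptor and JAK-STAT signalling genes (32 probe sets, median 1.41), 5 genes rose by limma and 0 fell. The smallest p belonged to Irf1, a transcription factor induced by interferon gamma (11.17 SDs, limma adjusted p = 0.0038, above 0 in every scaling), followed by the receptor chains Ifngr2 (5.92 SDs; 0.0094, above 0 in every scaling), Ifnar2 (4.25; 0.026) and Il10rb (3.60; 0.039), the last 2 of which were below 0 after quantile normalization and after median centring. A second Ifngr2 probe set was also called (5.03 SDs, limma adjusted p = 0.020), but was below 0 after quantile normalization and after median centring and lost its call without HP 1 (0.061), HP 2 (0.055), control 1 (0.054) or control 2 (0.057). The other Ifnar2 probe set was not called (0.60 SDs, limma adjusted p = 0.72) and had overlapping diets, so the probe sets of this gene differed. The called Ifnar2 probe set lost its call without HP 1 (0.072), HP 2 (0.068), HP 4 (0.063), control 2 (0.067) or control 3 (0.074). Il10rb lost its call without any array other than HP 1 (0.067 to 0.098).

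Of 13 genes of nucleic acid sensing and interferon induction (19 probe sets, median 0.48), 2 rose and 0 fell. These were Sting1, the adaptor for cytosolic DNA (4.43 SDs, limma adjusted p = 0.022), and Unc93b1, which carries Toll-like receptors to endosomes (4.39; 0.023). Both were above 0 in every scaling. The endosomal receptor Tlr7 (2.12; 0.15) and the adaptor Myd88 (1.89; 0.19) did not pass limma, but Tlr7 was called by rank products (FDR = 0.028). Sting1 lost its call without HP 1 (0.064) or any control array (0.050 to 0.071), and Unc93b1 without HP 1 (0.062) or any control array (0.053 to 0.065). Of 29 other interferon-induced genes (39 probe sets, median 1.63), 8 rose and 0 fell, led by the chemokines Cxcl10 (9.29 SDs, limma adjusted p = 0.0039) and Cxcl11 (7.30; 0.0060) and the secreted glycoprotein Lgals3bp (6.04; 0.0089), all 3 above 0 in every scaling. The membrane protein Shisa5 (4.18; 0.025) was at 0 after quantile normalization and below 0 after median centring. It lost its call without HP 1 (0.071), HP 2 (0.067), HP 3 (0.059), control 1 (0.061), control 2 (0.072) or control 4 (0.063). A second Shisa5 probe set was not called (2.63 SDs, limma adjusted p = 0.09). In all, 15 of 63 pathway genes rose and 0 fell by limma, or 16 of their 93 probe sets, against 2.95% of all probe sets called higher.

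Most macrophage and monocyte markers were higher on the HP diet, whereas few markers of other immune cells were called by limma. Of all probe sets, 2.95% were called higher. Of 20 macrophage and monocyte markers (22 probe sets), 15 rose and 0 fell by limma, with a median of 3.69 SDs, and the list's summed log2 level was 168.7805 to 168.7870 on the control arrays and 168.8046 to 168.8226 on the HP arrays. The smallest p values were those of Aif1 (6.13 SDs, limma adjusted p = 0.0086), Mpeg1 (5.72; 0.010), Cd53 (5.38; 0.012) and Fcgr1a (4.76; 0.018), and Fcgr1a was below 0 after quantile normalization and lost its call without HP 1 (0.059), control 2 (0.056) or control 3 (0.058). A second Aif1 probe set was at -2.26 SDs (limma adjusted p = 0.14), with the HP arrays below the control arrays in the values as deposited and a difference below 0 in the other scalings, and a second Mpeg1 probe set was at 1.08 SDs (0.45, below 0 after median centring). Of 15 T, NK and B lymphocyte markers (20 probe sets), 2 rose and 0 fell, with a median of 0.62 and summed levels of 133.6120 to 133.6123 and 133.6126 to 133.6130. They were Lck (6.78 SDs, limma adjusted p = 0.0067) and Cd3g (4.25; 0.024), both above 0 in every scaling and both found in T cells, and Lck kept its call whichever array was left out, whereas Cd3g lost it without HP 1 (0.070), HP 2 (0.065), HP 4 (0.059), control 1 (0.064), control 2 (0.059) or control 3 (0.075). Of other T cell genes, Cd3e (3.09; 0.057) and Cd3d (2.90; 0.068) did not pass limma but were called by rank products (FDR = 0.024 and 0.017). Of 8 plasmacytoid dendritic cell and neutrophil markers (9 probe sets), Flt3 was called higher (3.40 SDs, limma adjusted p = 0.043, below 0 after quantile normalization and after median centring) but lost its call whichever array was left out (0.062 to 0.097), and the list had a median of 0.60 and summed levels of 64.0374 to 64.0375 and of 64.0375. Since the values are logs without detection calls, no marker could be placed at 0, and the part of these cells in the members' differences was not tested.

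The labelled tissue was checked with 15 kidney identity genes (19 probe sets), of which 0 were called by limma. At an unadjusted limma p under 0.05, 5 of the 19 were lower and 0 higher, and rank products called 1 lower. Of all 31042 probe sets, 2932 were lower at this unadjusted p and 2.29% were called lower by rank products. Their median was -1.09 SDs, and their summed log2 level was 210.4757 to 210.4760 on the control arrays and 210.4756 to 210.4757 on the HP arrays. The smallest p belonged to the proximal tubular phosphate transporter Slc34a1 (-3.03 SDs, limma adjusted p = 0.060) and the distal tubular transporter Slc12a3 (-2.72; 0.082), with differences of Slc34a1 below 0 in every scaling and of Slc12a3 at 0 after quantile normalization. The 3′ minus 5′ difference of control probe sets, a sign of RNA integrity, differed between the diets by 5.77e-06 for beta-actin (exact permutation p = 0.17), 1.42e-07 for GAPDH (exact permutation p = 0.77) and 3.2e-06 for hexokinase (exact permutation p = 0.14), two-sided.

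**Figure D5:**
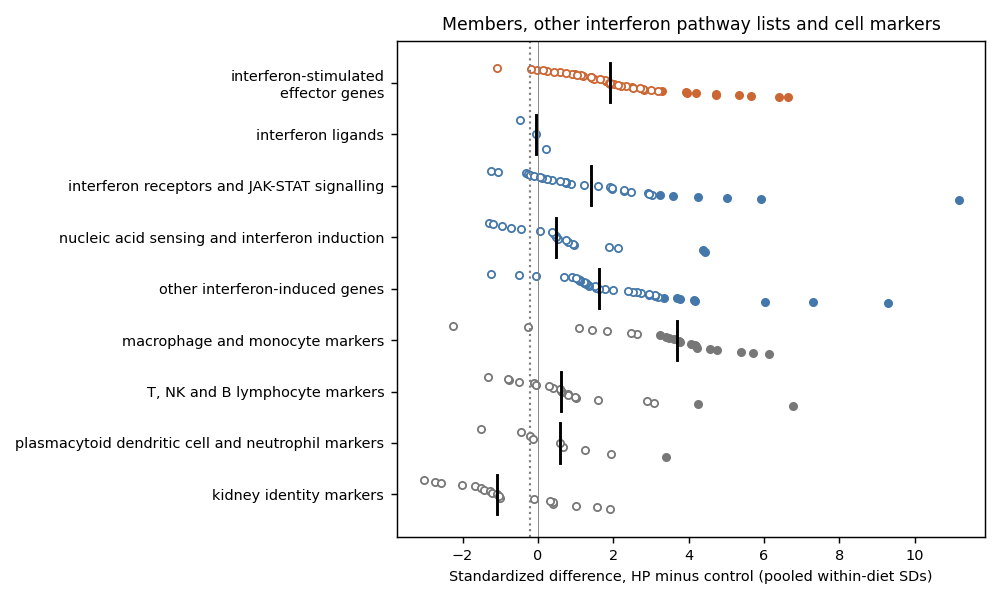
Standardized difference (horizontal axis, in pooled SDs within diets) of each probe set of the members, the 4 pathway lists and the 4 lists of cell markers (vertical axis). Filled points passed limma, black bars are list medians (1.91 for the members, 3.69 for macrophage and monocyte markers, -1.09 for kidney identity genes) and the dotted line is the median of all probe sets (-0.21).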

How the data were processed

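Total RNA of the left kidney was amplified, labelled with biotin by the authors (GeneChip 3′ IVT Express) and hybridized to 8 arrays. The authors condensed the probe intensities with DFW in R and Bioconductor (versions not given in the sources used here) to the deposited values, 1 log value per probe set, read here as log2. Arrays have no read depth, and their number (4 per diet) limits the precision. Genes were taken from GEO's platform annotation. A single gene was assigned to 20826 of 31099 probe sets, and 1 probe set that names Igtp together with other genes was left out, as were 57 Affymetrix controls.

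Differential expression was tested on the values as deposited with limma 3.58.1 in R 4.3.3 (lmFit and eBayes, prior degrees of freedom 0.772, adjusted p under 0.05). The SE given with a difference is the one before the moderation by eBayes. The difference divided by this SE is therefore not the moderated t behind the p values. Every adjusted p in the text is limma's. Rank products used the 16 pairs of arrays, 1000 permutations and an FDR under 0.05. Exact permutation tests used the 70 ways to divide the arrays. Python 3.11.15, numpy 2.4.6, pandas 2.3.3 and scipy 1.17.1 served for the rest. Promoters were those of RefSeq (GRCr8), and 11 members without an entry (Adar, Ddx58, Dhx58, Ifit1, Ifit2, Ifitm1, Isg15, Mx2, Oas2, Usp18 and Zbp1) were not searched. The tests were run on simulated data. A pass was required only at a shift larger than any member's standardized difference, and for rank products only in probe sets of large spread. Recovery of smaller differences was not required.

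The members, lists and tests were chosen with earlier results of these data known. Arrays are named for members called by limma (up to 15, by the probe set with the smallest p), members called only by rank products are named, the rest are given by role, and up to 4 genes with the smallest p are named in each other list. Array values of a few further members (Rsad2 and Ifit1) were added after they had been seen. Alternatives were trend and robust moderation, quantile normalization, centring of arrays on their median, removal of the lowest 25% of probe sets by mean value, the replicate number as a block, 1 probe set per gene, rank products, members found by synonym and removal of each array, and, chosen after seeing the data, centring on the median deviation.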

Additional observations from a re-analysis of the deposited data

Results flagged for a closer look

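Within a diet, 1 array stood apart from the other 3 in 3 of the 92 sets of 4 arrays examined (3.26%), where chance gives about 1 in 20, by the gap to the nearest array as a share of the whole range (above Dixon's critical value at the 95% level). For Mx2, in the probe set that was at -0.17 SDs, control 4 was the highest control array with a share of 0.986 (0.194, against -0.0664 to -0.0627 on the other control arrays, in 1e-05 of the log2 scale relative to the control mean). For Ifi44l, control 4 was the highest control array with a share of 0.842 (1.07, against -0.511 to -0.262), and HP 1 was the highest HP array with a share of 0.856 (7.6, against 5.31 to 5.64). Without control 4 the limma adjusted p of Ifi44l was 0.015, and without HP 1 it was 0.017, compared with 0.0069 on all arrays.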

How the results depend on the processing

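Of the 46 member probe sets, 10 were called higher and 0 lower by limma, and the same 10 were called with trend and robust moderation and with centring on the median deviation. Without the lowest 25% of probe sets by mean value, which left 42 of the 46, and with 1 probe set per gene, 11 were called, 10 of them the same, and a search by synonym gave 10. Rank products called 17 higher, and leaving out 1 array gave 4 to 10. Quantile normalization gave 1 higher and 8 lower, 4 of the 8 with no spread left within the diets (SD under 1e-12), median centring gave 0 higher and 0 lower, and these settings also moved all probe sets (7712 lower after quantile normalization, 78 higher and 19 lower after median centring). Of the 63 pathway genes, 15 were called higher, with 9 higher and 15 lower after quantile normalization, 0 after median centring and 5 to 12 without 1 array. Equal replicate numbers pair no arrays by the labels. Deviations from the diet means correlated at 0.121, 0.089, 0.063 and 0.001 between same-numbered arrays. Control 1, control 2, HP 1, HP 2 and HP 3 correlated best with the array of the same number on the other diet. Control 3, control 4 and HP 4 correlated best with an array of another number. With the number as a block 1 member, Parp14 (adjusted p = 0.045), and 5 pathway genes were called higher, against 10 and 15 without it. Of all 46 member probe sets, 13 were above 0 and 10 at 0 after quantile normalization, and 13 were above 0 after median centring. Among only the 29 probe sets compared across all settings, differences turned below 0, in 1e-05 of the log2 scale, after quantile normalization for Ifit2 (-7.64 and -14.3 in its 2 probe sets), Oasl (-1.04), Isg15 (-4.23), Eif2ak2 (-2.12), Irgm (-5.99), Ifi27 (-24.5), Ifnar2 (-19.4) and Il10rb (-23.8). After median centring they turned below 0 for Ifit2 (-0.931 and -2.52), Oasl (-3.15), Eif2ak2 (-5.61), Irgm (-1.04), Ifi44l (-0.0839), Ifnar2 (-5.33), Il10rb (-5.27) and Shisa5 (-4.13). Median centring subtracts 1 value from all probe sets of an array, so it lowered every difference by the same amount. Ifitm1 went from 72.1 to 66.0 and the called Ifit2 probe set from 5.17 to -0.931, so only small differences turned. Why the array medians differed was not tested, nor was the cause of the turns after quantile normalization. Over these 29 probe sets and their alternatives, 332 results kept their call status and did not turn below 0, 102 lost a call, 10 gained one and 18 turned. The 332 include the difference of 0 for Bst2 after quantile normalization. The DFW values bear no fold change, carry no detection call, and come from 4 selected animals per diet.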
